A study of Mus musculus with 14 samples.

Results

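A group of 5 transcription factor genes of the T helper 1 (Th1) lineage was followed through 12 CUT&RUN peak lists. They are Tbx21, Eomes, Hlx, Twist1 and Bhlhe40, chosen by name for their known roles with earlier results of these data known, and they are 5 of 21887 protein-coding genes in the gene table used. CUT&RUN releases the DNA around an antibody's target with a tethered nuclease, and the targets here were histone H3 acetylated at lysine 27 (H3K27ac), the loop-anchoring protein CTCF and the DNA-binding factor ETS1. The cells were naive CD4 T cells of mouse spleen, activated through CD3 and CD28 and cultured over 6 days in IL-12 (10 ng/mL) and IL-2 (1 ng/mL). The KO cells came from the strain C57BL/6J-Ets1-SE-KO and the WT cells from C57BL/6J. Both genotypes had the same culture, and the labels name no other allele, age or sex and do not say where at Ets1 the strain was altered. For each antibody there were 2 KO libraries, titled as 2 biological replicates, and 2 WT libraries, titled as technical replicates of 1 biological replicate.

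Tbx21 encodes T-bet, the T-box factor that commits CD4 T cells to the Th1 fate and turns on interferon-gamma. Eomes encodes a related T-box factor best known from cytotoxic lymphocytes, Hlx encodes a homeobox factor that acts with T-bet, and the products of Twist1 and Bhlhe40 are basic helix-loop-helix factors of which Twist1 restrains and Bhlhe40 sustains the cytokine output of Th1 cells. H3K27ac marks active promoters and enhancers, CTCF anchors chromatin loops, and ETS1 binds a short GGAA core found in very many lymphocyte promoters.

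Depth is unknown for these lists, so each value below is a length of sequence under called peaks or a number of merged regions. Over the genome, the length under peaks was 1.31 times as great in KO as in WT for H3K27ac and for CTCF, and 1.06 times as great for ETS1. The ETS1 lists were uneven within a genotype, with 40705 and 9344 peaks in KO and 14013 and 23419 in WT. The Ets1 gene itself, with 10 kb flanks, had 24.2 and 23.4 kb of H3K27ac in the KO libraries against 46.6 and 44.1 kb in the WT libraries, so the groups stood apart at the locus named in the strain label. IgG, the control antibody, gave 285 peaks in KO and 2 in WT, none of them within 50 kb of any of the 5 genes. All 6 CD4 T cell markers (Cd3d, Cd3e, Cd3g, Cd4, Cd5 and Lck) had an H3K27ac peak within 2 kb of a gene end in all 4 libraries. Of the Th1 markers, Tbx21 had one in all 4 libraries, Ifng in 1 WT library, and Stat4 and Cxcr3 in none. Peaks in all 4 libraries were also called at Cd8b1, at the B cell genes Cd79a and Ebf1, at the myeloid genes Csf1r and Spi1 and at the erythroid gene Klf1. The Th2 cytokine gene Il13 had one in both KO libraries and WT replicate 2, Foxp3 of regulatory T cells in KO replicate 2 and Cd14 in WT replicate 1. No library had one at Cd8a, Gata3, Il4, Ms4a1, Pax5, Lyz2, Itgam, Gata1 or Hba-a1, or at the markers of Th17, NK and non-haematopoietic cells. The part of other cell types in the values below was not tested, and in bulk cells a mark in fewer cells and a weaker mark per cell cannot be told apart.

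The bases before 4 of the 5 transcription starts are shown because ETS1, CTCF and H3K27ac differed there between the genes. They are the 250 bases before each start in RefSeq's GRCm38.p6 annotation, written 5′ to 3′ on the gene's strand, and 4 of the 5 genes had an entry. Capitals mark each ETS core (GGAA, or TTCC where it lies on the other strand) and the CTCF core. Tbx21 and Hlx had ETS1 peaks over these bases in all 4 libraries, Twist1 had one at the start itself in a single library, and Eomes had none. The spans are chr11:97115332-97115581 (minus strand) for Tbx21, chr1:184732494-184732743 (minus) for Hlx, chr9:118477939-118478188 (plus) for Eomes and chr12:33957421-33957670 (plus) for Twist1.
Tbx21: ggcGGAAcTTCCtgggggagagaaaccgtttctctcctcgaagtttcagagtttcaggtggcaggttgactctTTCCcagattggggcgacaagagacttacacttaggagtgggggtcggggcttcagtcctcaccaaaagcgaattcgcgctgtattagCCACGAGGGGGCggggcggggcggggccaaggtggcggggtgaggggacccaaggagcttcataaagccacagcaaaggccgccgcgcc
Hlx: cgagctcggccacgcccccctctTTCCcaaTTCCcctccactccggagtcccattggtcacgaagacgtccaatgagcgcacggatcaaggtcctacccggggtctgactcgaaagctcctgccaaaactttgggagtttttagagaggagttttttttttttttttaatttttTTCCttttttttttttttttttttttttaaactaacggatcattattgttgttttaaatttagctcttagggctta
Eomes: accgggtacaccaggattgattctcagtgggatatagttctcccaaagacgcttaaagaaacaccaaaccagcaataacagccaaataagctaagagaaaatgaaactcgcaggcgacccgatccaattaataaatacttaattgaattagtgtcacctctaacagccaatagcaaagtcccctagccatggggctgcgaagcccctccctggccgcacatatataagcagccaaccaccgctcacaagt
Twist1: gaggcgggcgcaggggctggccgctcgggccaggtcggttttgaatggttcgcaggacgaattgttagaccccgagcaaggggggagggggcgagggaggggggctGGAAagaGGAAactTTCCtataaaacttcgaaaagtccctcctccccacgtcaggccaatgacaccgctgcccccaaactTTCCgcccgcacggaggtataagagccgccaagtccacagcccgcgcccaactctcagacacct

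The bases before Tbx21 hold 3 ETS cores, 2 of them next to each other on opposite strands, and a CTCF core that begins 89 bases before the start. Those before Hlx hold 3 ETS cores, those before Twist1 hold 4, and those before Eomes none. The ETS core is common, being found on either strand in 93.4% of 32817 promoter entries of the same length, and the CTCF core, CCNNNAG followed by any 2 bases and GGC, was found in 7.16%. None of the 4 promoters holds the longer ETS site CCGGAAGT, found in 2.88% of entries, or the T-box site AGGTGTGA, found in 1.12%. The E-box CANNTG, found in 66.2%, occurs once before Tbx21 and not before the others. The ETS and CTCF motifs do not overlap in these sequences. A match is a description of the letters and not of a bound site, and no match says only that these letters are not in this window.

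The paired ETS cores of Tbx21 lay under an ETS1 peak in 4 of 4 libraries, and the third core in 3 of 4, missing KO replicate 2. The 3 ETS cores of Hlx lay under an ETS1 peak in all 4 libraries, and the 4 of Twist1 in none. The CTCF core of Tbx21 lay under a CTCF peak in both KO libraries and WT replicate 2, and in WT replicate 1 no CTCF peak was called there. Over 17492 genes with an entry, 20.2% had an ETS1 peak on the start or the 250 bases before it in all 4 libraries, 30% had a CTCF peak and 36.4% an H3K27ac peak.

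Tbx21 lies on chromosome 11 from 97098007 to 97115331 and was broadly acetylated in both genotypes. H3K27ac covered 10.8 and 8.88 kb of the gene and its 10 kb flanks in the KO libraries, against 8.98 and 9.68 kb in the WT libraries. The genotypes overlapped, KO replicate 1 being highest and KO replicate 2 lowest, and the log2 ratio of KO over WT was 0.07, with 1 kb added to each mean here and below. That is 28.8% and 23.8% of the window in KO and 24.1% and 25.9% in WT. An acetylated region ran from 0.812 kb before the start to 3.19 kb into the gene, and it was called in all 4 libraries.

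Upstream of Tbx21 the acetylation lay in 3 further regions that all 4 libraries called. They ran from 3.82 to 6.03 kb, from 6.76 to 14 kb and from 15.4 to 16.7 kb before the start. The middle one, at chr11:97122087-97129311, was the widest acetylated region within 50 kb of any of the 5 genes, with peaks over 6962 and 6083 bp in the KO libraries and 5968 and 5986 bp in the WT libraries. From 20.8 kb upstream the regions reach the neighbouring gene Tbkbp1, which encodes an adaptor of the kinase TBK1, and 44.4 kb upstream lies the importin gene Kpnb1. On the other side Osbpl7 begins 29.1 kb and Mrpl10 48.8 kb from the gene.

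With 50 kb flanks, Tbx21 had 29.3 and 28.5 kb of H3K27ac in the KO libraries and 26.6 and 26.2 kb in the WT libraries, a log2 ratio of 0.12. Both KO libraries stood above both WT libraries. Over all genes with a peak in such a window this held for 61.9%, and the median gene's log2 ratio was 0.25, above that of Tbx21. Part of the wide window belongs to the neighbouring genes.

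**Figure D1:**
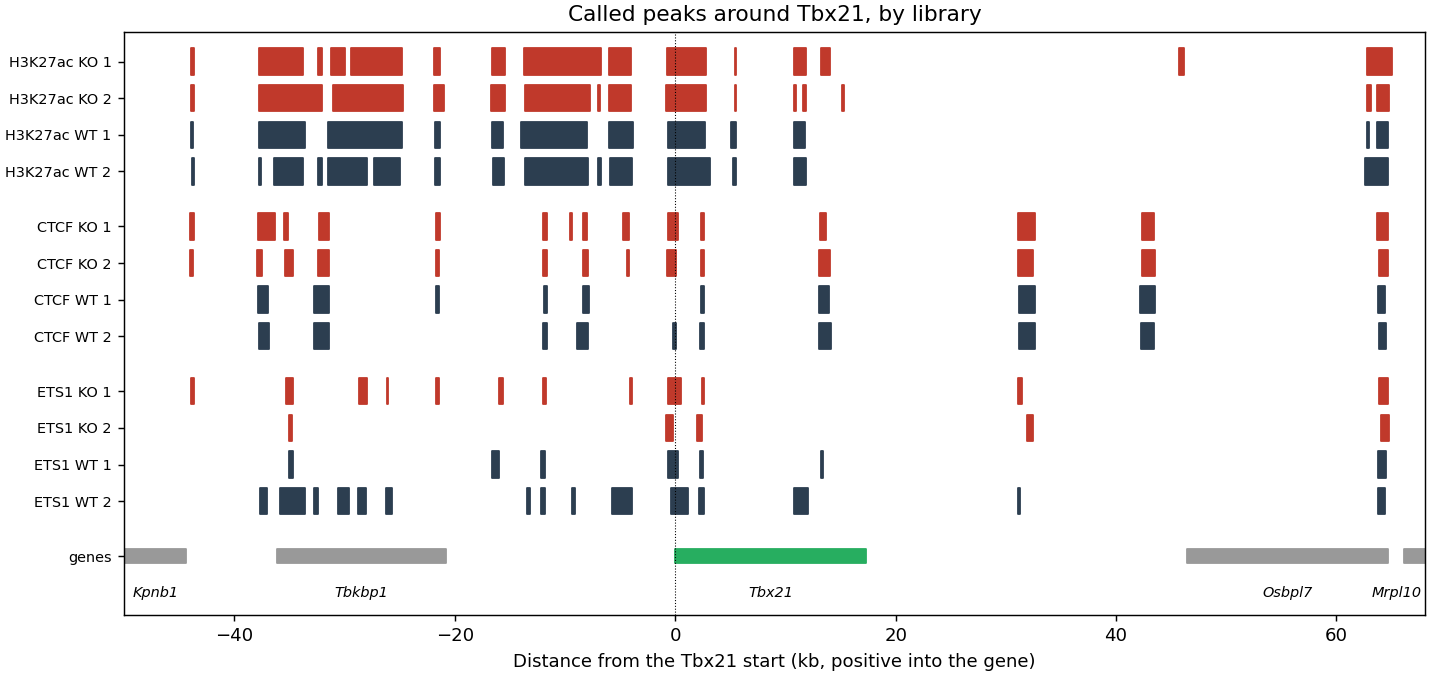
Called peaks around Tbx21 in the 12 libraries (KO red, above WT dark blue), by distance from the Tbx21 start in kb, positive into the gene. The H3K27ac block over the start, reaching 3.19 kb into the gene, and the blocks between 3.82 and 16.7 kb upstream are in all 4 libraries, while WT replicate 2 has the most ETS1 peaks.

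CTCF covered 2.83 and 2.85 kb of the Tbx21 window with 10 kb flanks in the KO libraries, against 1.65 and 2.67 kb in the WT libraries. KO stood above WT in both libraries, with a log2 ratio of 0.28 beside the median gene's 0.21. The ratio was 0.06 without WT replicate 1 and 0.54 without WT replicate 2. The CTCF region over the start, where the CTCF core lies, covered 942 and 885 bp in the KO libraries and 0 and 213 bp in the WT libraries. These were weak peaks, ranking above 14.5% and 5.74% of the peaks of their KO lists and above 0.628% of the list of WT replicate 2. A KO-only region, meaning one called in both KO libraries and in neither WT library, lay from 4.18 to 4.74 kb before the start. With lists of equal length, each CTCF list being held to its 31368 top-scored peaks, the Tbx21 window had 1.21 and 1.24 kb in the KO libraries and 1.65 and 2.67 kb in the WT libraries, so that the direction turned.

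Several strong CTCF regions of Tbx21 were shared. One inside the gene, 13 to 14.1 kb from the start, reached a −log10 q of 9.99 and 8.65 in the KO libraries and 5.07 and 6.8 in the WT libraries. A further pair beyond the gene's end, 31.1 to 32.6 kb and 42.2 to 43.5 kb from the start, were called in all 4 libraries outside any acetylated region. A shared region 11.6 to 12 kb upstream, within the widest acetylated block, had a −log10 q of 10.1 and 6.95 in the KO libraries, against 0.664 and 1.35 in the WT libraries. A region 21.4 to 21.7 kb upstream had 6.47 and 5.34 in the KO libraries, against 1.73 in WT replicate 1 and no call in WT replicate 2. The q-values are the authors' and were made within each list.

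A merged ETS1 region around the Tbx21 start, from 0.818 kb before to 1.17 kb after it, had a peak in all 4 libraries. It covered 1180 and 616 bp in the KO libraries and 908 and 1583 bp in the WT libraries. The peak of KO replicate 2 ran from -818 to -203 bp and so ended before the start itself. The peaks ranked above 40.3% and 6.77% of the KO lists and above 71.7% and 16.9% of the WT lists. A second region 2 to 2.62 kb into the gene was also shared. Over the window with 10 kb flanks the covered length was 1.52 and 1.07 kb in the KO libraries, against 1.38 and 5.36 kb in the WT libraries. The genotypes overlapped, and the log2 ratio of -0.93, lower than at all but 0.307% of genes with an ETS1 peak, rested on WT replicate 2. Without that library it was -0.05, and without WT replicate 1 it was -1.47. The additional length in WT replicate 2 lay mainly in 2 stretches. These were 3.96 to 5.76 kb upstream (1809 bp) and 10.8 to 12 kb into the gene (1241 bp), both overlapping acetylated regions. KO replicate 1 had 147 bp in the upstream stretch. With each ETS1 list held to its 9344 top-scored peaks, the window had 0 and 1.07 kb in KO and 1.38 and 0 kb in WT. With −log10 q of at least 3 no library had an ETS1 peak in that window. Beyond it, a region 11.8 to 12.2 kb upstream had a −log10 q of 7.69 in KO replicate 1 and no call in KO replicate 2. In the WT libraries it had 1.79 and 1.28. A shared region 33.6 to 35.9 kb upstream had 2.13 and 2.22 in the KO libraries and 2.85 and 5.43 in the WT libraries.

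Eomes, on chromosome 9 from 118478186 to 118486132, had little acetylation. A single H3K27ac region lay inside the gene, from 0.387 to 1.3 kb after the start, and was called in all 4 libraries. It covered 462 and 716 bp in the KO libraries and 666 and 789 bp in the WT libraries. The genotypes overlapped, with a log2 ratio of -0.12. Within 50 kb the next shared acetylated region was 27.9 to 29 kb away, at the edge of the neighbouring Golgi gene Golga4.

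CTCF was the most extensive mark at Eomes. A shared region from 0.342 to 1.58 kb after the start covered 1202 and 1231 bp in the KO libraries and 1175 and 1065 bp in the WT libraries, over the same stretch as the acetylation. A second one, beyond the gene's end at 8.24 to 11.9 kb, covered 2338 and 2401 bp in the KO libraries, against 2980 and 2900 bp in the WT libraries. Over the window with 10 kb flanks Eomes had 3.54 and 3.63 kb in KO and 4.16 and 3.96 kb in WT. Both WT libraries stood above both KO libraries, a log2 ratio of -0.14 that was lower than at all but 4.47% of genes with a CTCF peak. The direction was the opposite in the gene body alone, with a log2 ratio of 0.06, and with peaks of −log10 q of at least 3, where WT replicate 2 had 1.75 kb and the ratio was 0.21.

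ETS1 at Eomes was called at different places in the 2 genotypes. A KO-only region from 0.486 to 1.28 kb after the start covered 799 and 184 bp in the KO libraries and 0 and 0 bp in the WT libraries, and it lay within the stretch where H3K27ac and CTCF were called in all 4 libraries. A WT-only region, called in both WT libraries and in neither KO library, lay from 11.2 to 11.6 kb, within the downstream CTCF region, and covered 201 and 358 bp in WT. The KO-only region ranked above 72.6% and 7.79% of the peaks of the KO lists, the WT-only region above 24% and 51% of those of the WT lists. Neither was called in both libraries of a genotype once each ETS1 list was held to its 9344 top-scored peaks.

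Hlx lies on chromosome 1 from 184727143 to 184732493 and had a compact promoter. Its only H3K27ac region within 50 kb ran from 0.019 to 0.74 kb after the start, and covered 678 and 647 bp in the KO libraries and 620 and 685 bp in the WT libraries. The values overlapped and the log2 ratio was 0.01. The region reached a −log10 q of 6.54 and 11.5 in the KO libraries and 4.49 and 5.42 in the WT libraries. It was short but high in each list, ranking above 85.8% and 93.8% of the peaks of the KO lists and above 78.2% and 84.2% of those of the WT lists.

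ETS1 and CTCF both lay over the Hlx start in all 4 libraries. The ETS1 region, from 0.623 kb before to 0.897 kb after the start, covered 1154 and 878 bp in the KO libraries and 1174 and 1521 bp in the WT libraries. The CTCF region, from 0.895 kb before to 0.677 kb after it, covered 1305 and 1308 bp in the KO libraries and 929 and 1551 bp in the WT libraries. For both antibodies the genotypes overlapped at this region, WT replicate 2 being highest. The ETS1 peaks ranked above 65.7% and 38.2% of the KO lists and above 51.3% and 70% of the WT lists. With each ETS1 list held to its 9344 top-scored peaks, KO replicate 1 had none here. With −log10 q of at least 3 no library had one. The CTCF peak of WT replicate 1 ranked above 12.5% of its list.

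CTCF over the whole Hlx window with 10 kb flanks was 2.54 and 2.2 kb in the KO libraries, against 1.43 and 1.95 kb in the WT libraries, a log2 ratio of 0.33 that was 0.19 without WT replicate 1. Both KO libraries stood above both WT libraries, and a KO-only region 1.91 to 2.18 kb upstream (267 and 198 bp in KO) was part of the difference. With lists of equal length the values were 2.32 and 1.81 kb in KO and 1.43 and 1.95 kb in WT, which overlap. ETS1 over that window was 1.31 and 0.878 kb in the KO libraries and 1.17 and 1.87 kb in the WT libraries, again overlapping. No other protein-coding gene lies within 50 kb of Hlx or of Bhlhe40.

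**Figure D2:**
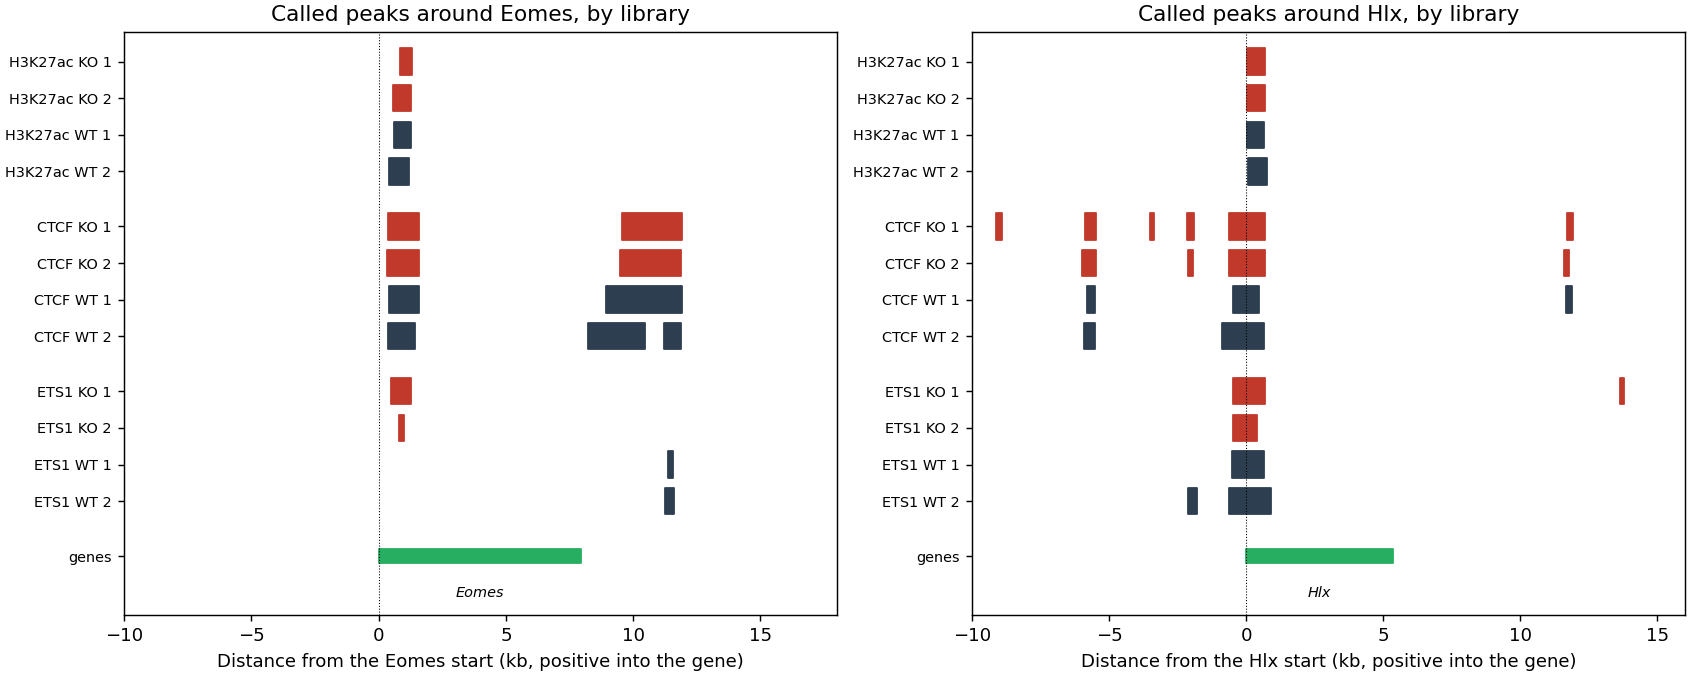
Called peaks around Eomes (left) and Hlx (right) in the 12 libraries (KO red, above WT dark blue), by distance from each start in kb, positive into the gene. At Hlx ETS1 and CTCF cover the start in all 4 libraries and H3K27ac begins just after it, while at Eomes the acetylated region lies 0.387 to 1.3 kb inside the gene, where ETS1 is called in the KO libraries and not in the WT libraries.

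Bhlhe40, on chromosome 6 from 108660629 to 108666925, showed the clearest difference in acetylation. H3K27ac covered 3582 and 3395 bp of the gene body in the KO libraries, against 1442 and 954 bp in the WT libraries, which is 3.49 ± 0.132 kb and 1.2 ± 0.345 kb (SD, n = 2 libraries each). Both KO libraries stood above both WT libraries with a log2 ratio of 1.03, higher than at 98.4% of genes with an H3K27ac peak in the gene body. Both KO libraries stood above both WT libraries at 45.6% of those genes. Per length, peaks covered 56.9% and 53.9% of the gene body in KO, against 22.9% and 15.2% in WT.

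A pair of stretches inside Bhlhe40 carried this difference. Distances are from the gene's lower-coordinate end. A KO-only region 2.35 to 3.38 kb into the gene, at chr6:108662974-108664012, covered 982 and 1039 bp in the KO libraries. The next region, 3.93 to 5.44 kb into the gene, was shared but covered 1508 and 1267 bp in the KO libraries and 353 and 441 bp in the WT libraries. The acetylated region at the lower-coordinate end, which spans 3.52 kb before it to 1.09 kb inside, was alike in length, with 4555 and 4237 bp in the KO libraries and 4613 and 3983 bp in the WT libraries.

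The KO-only region of Bhlhe40 was among the weak calls, ranking above 16.6% and 4.17% of the peaks of the 2 KO lists. When each H3K27ac list was held to its 24581 top-scored peaks it was lost from KO replicate 2, and the gene body then had 3.58 and 2.36 kb in the KO libraries and 1.44 and 0.954 kb in the WT libraries, still not overlapping, with a log2 ratio of 0.85. With peaks of −log10 q of at least 3 only, the gene body had 1.09 kb in both KO libraries and 1.09 and 0.513 kb in the WT libraries.

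With 10 kb flanks H3K27ac at Bhlhe40 covered 9.84 and 8.36 kb in the KO libraries, against 7.58 and 6.62 kb in the WT libraries, a log2 ratio of 0.32 that was 0.21 without KO replicate 1. The KO libraries were the higher ones. The ratio of 0.32 was higher than at 68.4% of genes with a peak in such a window, whose median was 0.18. With lists of equal length the values were 9.84 and 6.91 kb in KO and 7.58 and 6.62 kb in WT, so KO replicate 2 lay between the WT libraries. With 50 kb flanks it was 14.5 and 14.3 kb in the KO libraries and 11.8 and 11.2 kb in the WT libraries. The groups stood apart with a log2 ratio of 0.30, higher than at 57.4% of genes with a peak, whose median was 0.25. A second KO-only region lay 46.3 to 46.7 kb away, with 339 and 194 bp.

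CTCF covered 4.54 and 3.55 kb of the Bhlhe40 window with 10 kb flanks in the KO libraries, against 3.51 and 2.6 kb in the WT libraries. Both KO libraries stood above both WT libraries by a narrow margin, with a log2 ratio of 0.31 that was 0.17 without KO replicate 1 and 0.16 without WT replicate 2, and 0.49 without WT replicate 1. With lists of equal length the genotypes overlapped. Most of the CTCF length was 1 shared region around the lower-coordinate end, 3738 and 3383 bp in the KO libraries and 3343 and 1888 bp in the WT libraries. A pair of KO-only CTCF regions lay in the wide window, 27.7 to 28.1 kb and 45.3 to 45.6 kb away, both inside acetylated regions.

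ETS1 had a shared region at the lower-coordinate end of Bhlhe40, covering 2340 and 849 bp in the KO libraries and 1383 and 2218 bp in the WT libraries. Of the shared ETS1 regions at these genes it had the highest rank in the KO lists, above 88.1% and 88.2% of their peaks. The window with 10 kb flanks had 2.9 and 0.849 kb in the KO libraries and 1.83 and 2.88 kb in the WT libraries, with the KO libraries at both extremes. A WT-only region 48.7 to 49.5 kb away covered 650 and 655 bp in WT.

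**Figure D3:**
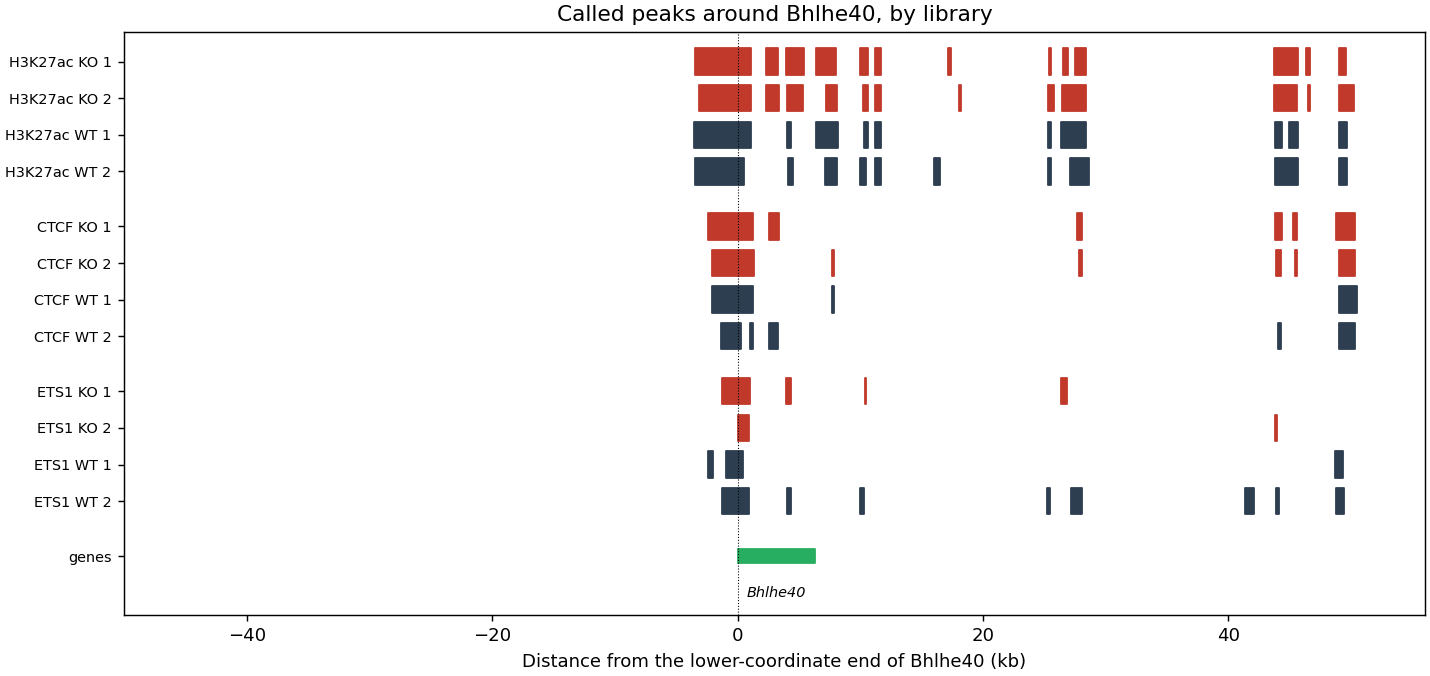
Called peaks around Bhlhe40 in the 12 libraries (KO red, above WT dark blue), by distance from the lower-coordinate end of the gene in kb. The H3K27ac blocks from 2.35 to 5.44 kb, inside the gene, are wide in both KO libraries, and the WT libraries have short blocks only in the part from 3.93 kb.

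Twist1, on chromosome 12 from 33957671 to 33959831, had no H3K27ac and no CTCF peak in any library, either with 10 kb or with 50 kb flanks. Its one call was an ETS1 peak of KO replicate 1, from 0.004 kb before to 1.18 kb after the start and 1182 bp long, against 0 bp in KO replicate 2 and in both WT libraries. It ranked above 64.2% of the peaks of that list, the longest of the ETS1 lists. The next gene, Ferd3l, lies 28.4 kb away.

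Set side by side per length, H3K27ac covered 37.4% and 31.8% of the Bhlhe40 window with 10 kb flanks in the KO libraries and 28.8% and 25.2% in the WT libraries. Tbx21 followed with 28.8% and 23.8% in KO and 24.1% and 25.9% in WT, so the order of the 2 genes held in KO, while in WT their values overlapped. With lists of equal length the KO values overlapped too, although Bhlhe40 was the higher within each KO library. Bhlhe40 then had 6911 bp of its 26297 bp window in KO replicate 2. Tbx21 had 10760 bp of its 37325 bp window in KO replicate 1. Hlx had 2.67% and 2.55% in KO and 2.45% and 2.7% in WT, and Eomes had 1.65% and 2.56% in KO and 2.38% and 2.82% in WT. Hlx was thus above Eomes in only part of the libraries. The 5 genes formed a high pair, a low pair and Twist1 with no call.

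The order was another one for CTCF. Bhlhe40 had 17.3% and 13.5% of its window under CTCF peaks in KO and 13.3% and 9.89% in WT, and Eomes had 12.7% and 13% in KO and 14.9% and 14.2% in WT. These 2 genes changed places between the genotypes. With lists of equal length this did not hold in KO replicate 2. That library had 3383 bp of the 26297 bp window at Bhlhe40 and 3632 bp of the 27947 bp window at Eomes. Hlx (10% and 8.66% in KO, 5.62% and 7.69% in WT) and Tbx21 (7.58% and 7.64% in KO, 4.42% and 7.16% in WT) came next, and their values overlapped in WT.

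**Figure D4:**
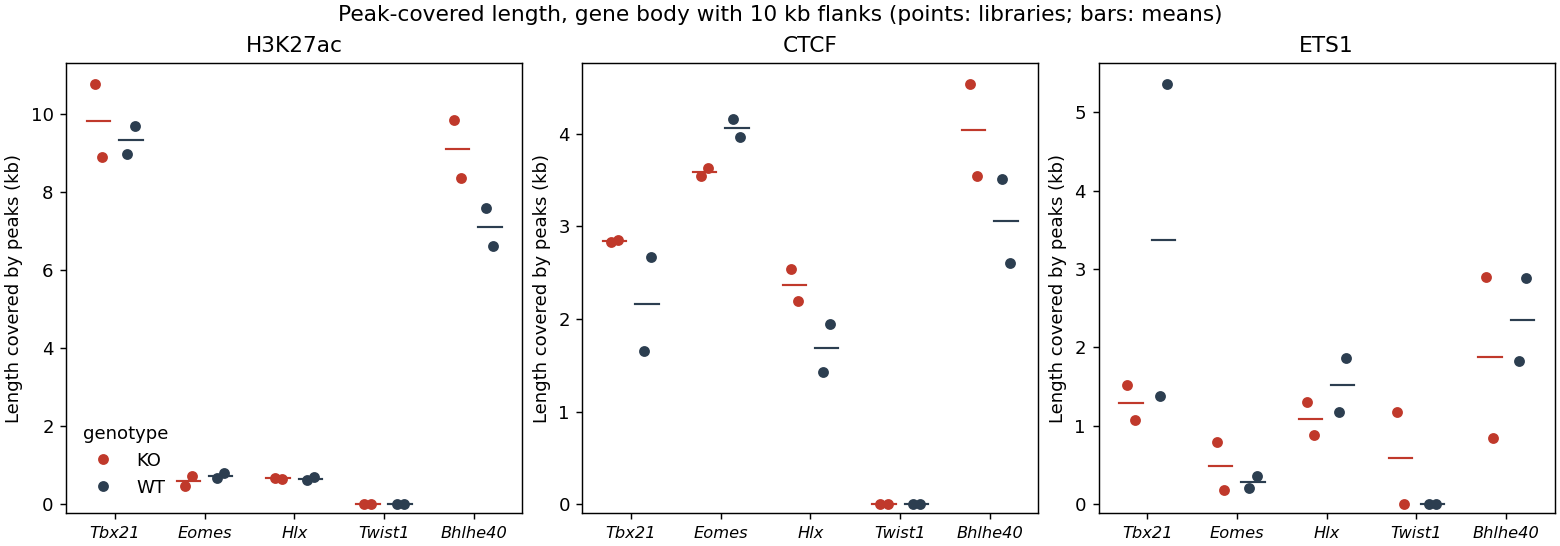
Length under H3K27ac, CTCF and ETS1 peaks (kb) in the gene body with 10 kb flanks of each gene, 1 point per library, KO (red) left of WT (dark blue), with bars at the means. For H3K27ac the groups stand apart at Bhlhe40 alone, and for ETS1 WT replicate 2 at Tbx21 (5.36 kb) is the highest value.

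Counted over the 5 genes with 10 kb flanks, both KO libraries were above both WT libraries in H3K27ac at 1 gene (Bhlhe40), where this held for 54.0% of the 13284 genes with a peak. No gene of the 5 had both WT libraries above, against 6.37% of all genes. At Tbx21, Eomes and Hlx the genotypes overlapped, and Twist1 had no peak. In the gene body alone the count was 1 as well (45.6% of all genes), and with 50 kb flanks it was 2, Tbx21 and Bhlhe40 (61.9%). With lists of equal length no gene had both KO libraries above with 10 kb flanks, while 49.9% of all genes did.

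For CTCF, both KO libraries were above both WT libraries at 3 of the 5 genes with 10 kb flanks (Tbx21, Hlx and Bhlhe40), beside 56.3% of all 16073 genes with a peak. Eomes had both WT libraries above, which 3.02% of all genes had. In the gene body alone the KO libraries were above at 3 genes (Eomes, Hlx and Bhlhe40), beside 51.2% of all genes, and with 50 kb flanks at 2 (Tbx21 and Bhlhe40), beside 64.2%. The background counts only genes with a peak, which 4 of the 5 genes have. With lists of equal length it was 0 genes in KO (41.6% of all genes) and 2 in WT (Tbx21 and Eomes, 6.51% of all genes).

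For ETS1 no gene of the 5 stood apart with 10 kb flanks, where 3.86% of all genes had both KO libraries above and 7.47% both WT libraries. In the gene body alone Eomes had both KO libraries above (4.91% of all genes), and Tbx21 had both WT libraries above (8.34% of all genes), with 710 and 455 bp in KO and 730 and 2863 bp in WT. With 50 kb flanks Hlx had both WT libraries above (5.09% of all genes), at 1.31 and 0.878 kb in KO and 1.65 and 1.87 kb in WT. The value of WT replicate 1 includes a weak peak of 477 bp, 48 to 48.5 kb from the start, ranking above 10.5% of its list. The rest of that value is 1174 bp over the Hlx start, which is below KO replicate 1. In the Tbx21 gene body KO replicate 1 and WT replicate 1 were closer to each other than the replicates of either genotype were. With 2 libraries against 2, an exact two-sided permutation test cannot give a p below 0.333, so no difference here could pass a threshold of significance, and the 2 WT libraries are technical replicates by their titles.

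Merged over the 4 libraries of an antibody, the 5 windows with 10 kb flanks held 16 H3K27ac regions. Of these, 12 were shared, 1 was KO-only and none WT-only, while over the genome 7.10% of merged regions were KO-only and 2.70% WT-only, and 44.0% were shared. The windows held 17 CTCF regions, of which 8 were shared and 2 KO-only and none WT-only, beside 8.61% KO-only, 0.580% WT-only and 53.0% shared over the genome. They held 17 ETS1 regions, of which 4 were shared, 1 KO-only and 1 WT-only, beside 0.518% KO-only, 1.12% WT-only and 11.9% shared over the genome. The ETS1 pair are the Eomes regions described above, and the remaining 11 ETS1 regions were called in other combinations of libraries.

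The antibodies were also compared with each other, using regions that both libraries of a genotype called within 50 kb of the 5 genes. In KO, CTCF overlapped 15 of 25 acetylated regions (60%, with 58.4% over the genome) and ETS1 overlapped 6 of 25 (24%, with 33.7%). In WT, CTCF overlapped 9 of 23 (39.1%, with 46%) and ETS1 overlapped 8 of 23 (34.8%, with 42.7%). These shares rest on few regions and were not tested against the genome.

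Another 25 genes of the Th1 pathway, from IL-12 and interferon receptors to cytokines and cytotoxic effectors, were read in the same way. For H3K27ac, 23 had a peak, of which 8 had both KO libraries above (54.0% of all genes) and 3 both WT libraries (6.37%), with a median log2 ratio of 0.02 beside 0.18 over all genes. Genes with both KO libraries above included Il12rb2, a chain of the IL-12 receptor, with 19.4 and 13.9 kb in KO against 4.31 and 5.65 kb in WT, and Lta, the lymphotoxin gene, with 12.8 and 10.7 kb in KO against 6.88 and 7.43 kb in WT. Il2rb, the shared chain of the IL-2 and IL-15 receptors, had 19.3 and 19.9 kb in KO against 15 and 13.9 kb in WT. Both WT libraries were above at Fasl, the death ligand gene, with 1.23 and 1.57 kb in KO against 2.98 and 2.44 kb in WT. They were above by less at Runx3, with 21.1 and 20.8 kb in KO against 21.4 and 21.8 kb in WT. Havcr2 had little acetylation, with 0 and 0 kb in KO against 0.374 and 0.398 kb in WT. For CTCF, 15 of 24 genes had both KO libraries above and 1 both WT libraries, beside 56.3% and 3.02% of all genes, with a median of 0.22 beside 0.21. For ETS1, 2 of 19 had each, beside 3.86% and 7.47% of all genes, with a median of -0.21 beside 0.04.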

How the data were processed

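Peak lists of 12 CUT&RUN libraries (3 antibodies, 2 genotypes, 2 libraries each) and of 2 IgG libraries were used as deposited, 1 list per library. Per the submitters' processing notes the aligner was BWA and the build GRCm38. Peak names in the deposited files follow MACS2, while its version and options, a control in calling and duplicate removal are not stated. The deposited lists have 9 columns: the authors' score is a whole number made from the q-value, the authors' fold is a ratio over background, and −log10 p and −log10 q of the authors' caller close each line. These belong to each list and were used here to rank or filter peaks within it. Where −log10 q is printed for KO and WT lists together, the values were not made comparable across lists. The lists hold no counts, so depth is unknown, and longer lists or wider peaks may follow depth or background.

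Genes came from NCBI RefSeq's table of GRCm38.p6. Peaks were clipped to the gene body with 10 kb flanks (also 0 and 50 kb), and the covered length was summed with Python 3.11.15, numpy 2.4.6 and pandas 2.3.3 after tests on simulated intervals. The log2 ratio is that of the mean covered lengths of KO over WT with 1 kb added to each. Genotypes stand apart when both KO libraries exceed both WT libraries or the reverse. Background shares are over protein-coding genes with a peak in the window in any of the 4 libraries. Peaks were merged across the 4 libraries where they overlapped by at least 1 bp. Motifs were searched on both strands, the CTCF core being the 12-letter core of the CTCF motif with 7 fixed letters. All 5 genes are named with all values, neighbours within 50 kb are named, the 3 genes most like each member by the 12 lengths are in the closing section, and other Th1 genes are named up to 4 a direction by the mean difference in H3K27ac length among those that stand apart. The counts include list genes that are not reported here by name. The members and lists were chosen with earlier results of these data known. The file names number the 2 CTCF libraries of WT differently, and the titles were followed. Alternatives tried were the window, list length, q threshold, clipping, peak number, merging gap, minimum cover, added constant and leaving out each library. Figures were drawn with matplotlib 3.10.9.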

Additional observations from a re-analysis of the deposited data

How the results depend on the processing

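Of 165 log2 ratios recomputed for single genes under the alternatives, 148 moved by no more than the spread between replicates (among them those of Twist1 for H3K27ac and CTCF, which had no peak), 10 moved by more and 7 reversed a difference that had stood apart. The spread combined the variances of both genotypes, the WT part being between technical replicates, and it was wide for the uneven ETS1 lists. The change of ETS1 at Tbx21 from -0.93 to -0.05 without WT replicate 2 was thus within it. The reversals were all of CTCF. No ETS1 difference had stood apart with 10 kb flanks, so none could be counted as reversed. At Tbx21 the ratio was -0.03 in the gene body alone, -0.51 with lists of equal length (the top-scored peaks of each) and -0.14 with −log10 q of at least 3, and at Eomes it was 0.06 in the gene body alone, 0.02 with 50 kb flanks and 0.21 with −log10 q of at least 3. At Bhlhe40 it was -0.22 for the number of peaks. Signs also changed where the genotypes had overlapped, which was not counted as a reversal. For ETS1 at Bhlhe40 the ratio went from -0.22 to 0.30 with −log10 q of at least 3. For ETS1 at Eomes it went from 0.22 to -0.23 with 50 kb flanks. For H3K27ac at Eomes it went from -0.12 to 0.44 with −log10 q of at least 3. The cause was not tested.

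The number of genes with all KO libraries above all WT libraries was 1 for H3K27ac, 3 for CTCF and 0 for ETS1. For H3K27ac it was 2 (Tbx21, Bhlhe40) with 50 kb flanks (61.9% of all genes) and with −log10 q of at least 3 (54.0%). It was 0 with lists of equal length (49.9%) and 0 for the number of peaks. For CTCF it was 0 with lists of equal length (41.6% of all genes) and 1 with −log10 q of at least 3 (57.5%). For ETS1 it was 1 in the gene body alone (4.91%). The number with all WT libraries above was 0, 1 and 0. For CTCF it was 0 in the gene body alone, with 50 kb flanks and for the number of peaks. With −log10 q of at least 3 it was 0 (2.33% of all genes), and with lists of equal length 2 (6.51%). For ETS1 it was 1 in the gene body alone (Tbx21, 8.34% of all genes) and with 50 kb flanks (Hlx, 5.09%). With lists of equal length it was also 1 (Hlx, 14.3%).

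Leaving out 1 library in turn gave 1 to 2 genes with KO above for H3K27ac, 3 to 3 for CTCF and 0 to 3 for ETS1, and 0 to 2, 1 to 1 and 0 to 4 with WT above. With 3 libraries fewer orders are possible, so such calls come more easily. For ETS1 it was KO replicate 2, the shortest list, whose removal gave 3 genes with KO above, and KO replicate 1, the longest, whose removal gave 4 with WT above.

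KO-only regions at the 5 genes numbered 1 for H3K27ac, 2 for CTCF and 1 for ETS1, and WT-only regions 0, 0 and 1. KO-only H3K27ac regions numbered 2 with 50 kb flanks and 0 with lists of equal length. KO-only CTCF regions numbered 0 in the gene body alone, 6 with 50 kb flanks, 0 with lists of equal length and 0 with −log10 q of at least 3, and WT-only ones 1 with 50 kb flanks. KO-only ETS1 regions numbered 0 with lists of equal length, with −log10 q of at least 3 and with peaks covering at least 25% of the region, and WT-only ones 0 in the gene body alone, 2 with 50 kb flanks, 0 with lists of equal length and 0 with −log10 q of at least 3. Without 1 library in turn, KO-only regions ranged from 1 to 2, 2 to 5 and 1 to 4, and WT-only regions from 0 to 1, 0 to 0 and 1 to 5, for H3K27ac, CTCF and ETS1 in that order.

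No paired analysis was possible because the WT libraries come from 1 biological replicate and the KO libraries from 2, so their numbers pair no samples. Depth is unknown and limits how far lists of different length can be set side by side.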

Other observations

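The genes whose 12 covered lengths with 10 kb flanks lay nearest to those of each factor were looked up, by Euclidean distance of log2(kb + 1) over the 12 libraries, among genes on other chromosomes or over 1 Mb away. For Tbx21 they were Frmd8 (distance 0.93), Plekha2 (0.98) and Smad7 (1.0). Frmd8 had 10.9 and 13 kb of H3K27ac in KO and 10.3 and 11.2 kb in WT, and 1.93 and 0.979 kb of ETS1 in KO against 1.5 and 2.96 kb in WT. For Bhlhe40 they were Ptprj, a receptor phosphatase gene (0.56), Fam207a (0.61) and Tnp2 (0.63). Ptprj had 9.08 and 8.05 kb of H3K27ac in KO against 7.16 and 6.2 kb in WT, so both KO libraries stood above both WT libraries as at Bhlhe40. For Hlx they were Gm52523 and Lpcat4 (0.41 each), which lie at 1 locus of chromosome 2 and share peaks, and Nln (0.61), and for Eomes Spr (0.70), 1700003E16Rik (0.72) and Gpr157 (0.73). Twist1 was nearest to Prom2, Pcdhb16 and Pcdhb17, which likewise had an ETS1 peak of KO replicate 1 and no other call. These likenesses describe peak lengths in these libraries and rest on the same 12 lists.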
